A study of Drosophila melanogaster with 2 samples.

Results

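The axon guidance genes described here are 36 Drosophila melanogaster genes for guidance ligands, receptors, adhesion proteins and cytoskeletal effectors. They were listed by name, and all 36 were found in the Ensembl annotation among its 13968 coding genes. They comprised 7 ligand genes, 9 receptor genes, 1 gene for receptor sorting, 4 receptor tyrosine phosphatase genes, 9 adhesion and surface recognition genes and 6 effector genes. The data are chromatin immunoprecipitation sequencing (ChIP-seq) of the homeodomain transcription factor Unc-4. There was 1 group, whole embryos aged 6 to 18 h of the transgenic strain labelled unc-4-GFP, in which Unc-4 is fused to eGFP. It had 2 biological replicates of that strain, both pulled down with an anti-GFP antibody by their description, although unc-4 is what the label for the antibody reads. The age given here is that of the source name, because the separate age label gives an hour that cannot be an embryo's age. Which regulatory sequence drives the fusion, and in which cells, is not stated by the labels, and the read depth is unknown. Both replicates carry the same line label and were separate biological samples. Possible control libraries named by the labels were not analysed here. In whole embryos, strong occupancy in few cells and weak occupancy in many cells cannot be told apart.

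Growing axons are steered by secreted and membrane-bound cues that are read by receptors on the growth cone. Slit repels axons through Robo receptors at the midline, Netrins attract them through Frazzled and repel them through Unc-5, and semaphorins act through plexins. Inside the cell the receptors act on adaptors, kinases and actin regulators such as Dock, Pak, Abl and Ena. Unc-4 is known from subsets of postmitotic neurons. The C. elegans gene unc-4 is known for its role in the synaptic input of motor neurons.

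Summits, the highest points of peaks, were taken from the thresholded list made from both replicates together (the pooled list), which held 4899 nuclear summits. A summit was assigned to a gene when it lay within 1 kb of any annotated transcript start of that gene (an own-start summit), or anywhere in the gene or within 5 kb of its ends (a window summit). Signal is the authors' peak value. Its scale is not stated, and it can be compared only within a list. With 1 group and no control lists there was no comparison of conditions, and no test was made. Counts over the guidance genes are given beside the share of all coding genes, and intervals are 95% Wilson intervals that cover counting error only.

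Own-start summits were present at 18 of the 36 guidance genes (50%, 34.5 to 65.5), where 35.9% of all coding genes had one. The roles differed in these counts. An own-start summit was found at 2 of 7 ligand genes, Sema1a and Sema2a, and at 5 of 9 receptor genes, robo1, fra, unc-5, PlexA and PlexB. All 4 receptor phosphatase genes, Lar, Ptp10D, Ptp69D and Ptp99A, had one, as did 5 of 6 effector genes, trio, Abl, ena, dock and Pak. Among the 9 adhesion genes only Tollo and Ten-m had one, and comm had none. Receptors, sorting, phosphatase and adhesion genes together gave 11 of 23. The interval was 8.22 to 64.1% for ligands, 29.2 to 67.0% for those 23 genes and 43.6 to 97.0% for effectors, so the intervals of the 3 classes overlap.

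**Figure D1:**
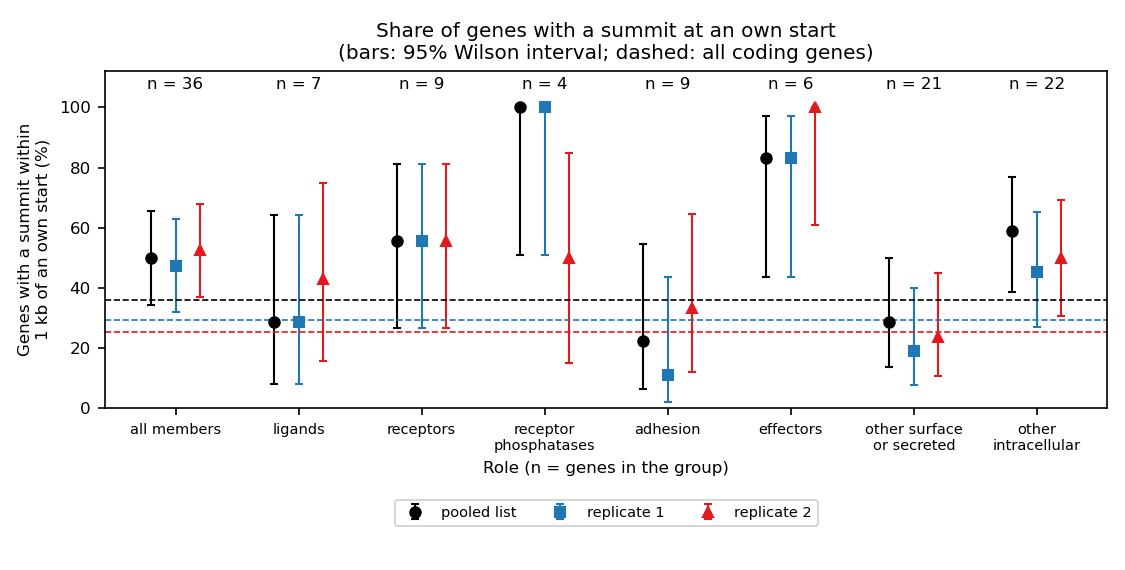
Percent of genes (y axis) with a summit within 1 kb of an own start, by role and for 2 groups of other pathway genes (x axis), in the pooled list and in each replicate's thresholded list; bars are 95% Wilson intervals and dashed lines the share of all coding genes in the same list. In the pooled list effectors stand at 5 of 6 and receptor phosphatases at 4 of 4, while adhesion genes stand at 2 of 9.

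Each replicate's own thresholded list was counted in the same way. Replicate 1 gave 17 guidance genes with an own-start summit, against 29.2% of coding genes. Replicate 2 gave 19, against 25.5%, and the more conservative pooled list gave 16, against 33.7%. The same 13 genes were present in all 4 lists: Sema1a, Sema2a, robo1, fra, unc-5, PlexB, Ptp10D, Ptp69D, trio, Abl, ena, dock and Pak. Phosphatase genes were 4 of 4 in replicate 1 and 2 of 4 in replicate 2, where Lar and Ptp99A were missing. Adhesion genes were 1 of 9 in replicate 1, namely Ten-m, and 3 of 9 in replicate 2, namely caps, Tollo and Ten-a. These 2 small groups differed between the replicates by more than 1 gene. Ligands (2 and 3 of 7), receptors (5 and 5 of 9) and effectors (5 and 6 of 6) changed by at most 1 gene. So few genes do not show that a role depends on the library. At Lar and Ten-m the replicate 2 peaks came close to the threshold, as given below.

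Many guidance genes are long, and length moves with these counts. The guidance genes had a median length of 40274 bp against 2164.5 bp for coding genes. Of the 18 guidance genes at least as long as their median, 5 had an own-start summit, and 34.3% of the 464 coding genes of that length had one. Of the 18 shorter ones 13 had one, where coding genes from the shortest guidance gene (6624 bp) up to the median gave 45.7%. Median length was 73207 bp for adhesion genes and 27045.5 bp for effectors. The part of length in the difference between roles was not tested. Guidance genes with 1 start gave 9 of 18, where coding genes with 1 start gave 30.9%. Those with more starts also gave 9 of 18, where such coding genes gave 49.7%.

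The summit base and the 50 bp on either side of it are shown for 13 of the guidance genes with an own-start summit, in order of falling signal, since strong and weak peaks differed in the short motifs they hold. Each is printed 5′ to 3′ on the strand of the gene (RefSeq sequence, Release 6, dm6 coordinates). Capitals mark the motif TATCGA, the motif TAATTA or the motif GAGAGA on either strand, and where a motif overlaps its own reverse complement, 1 block of capitals holds both. The windows of dock, Pak, Abl, Ptp10D and PlexB hold TATCGA, and those of trio and Ptp69D belong to strong peaks without it. The last 6 windows are those of peaks with lower signal than these. Of them Sema1a and PlexA are still above the nuclear median of 107.
dock, chr2L:825860-825960, plus strand: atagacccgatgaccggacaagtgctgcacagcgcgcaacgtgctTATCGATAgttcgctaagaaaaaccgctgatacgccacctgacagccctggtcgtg
Pak, chr3R:6350817-6350917, plus strand: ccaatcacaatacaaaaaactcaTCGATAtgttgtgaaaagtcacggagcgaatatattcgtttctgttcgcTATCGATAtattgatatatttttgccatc
trio, chr3L:1035013-1035113, minus strand: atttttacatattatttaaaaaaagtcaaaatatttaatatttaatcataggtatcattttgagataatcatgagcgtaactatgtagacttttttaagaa
Abl, chr3L:16647937-16648037, minus strand: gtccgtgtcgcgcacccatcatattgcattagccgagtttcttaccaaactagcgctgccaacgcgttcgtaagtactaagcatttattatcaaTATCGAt
Ptp10D, chrX:11621858-11621958, plus strand: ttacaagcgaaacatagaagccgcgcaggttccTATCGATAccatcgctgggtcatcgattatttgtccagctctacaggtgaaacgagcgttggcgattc
Ptp69D, chr3L:12734744-12734844, plus strand: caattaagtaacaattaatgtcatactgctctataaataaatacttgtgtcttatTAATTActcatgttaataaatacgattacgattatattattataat
PlexB, chr4:43768-43868, minus strand: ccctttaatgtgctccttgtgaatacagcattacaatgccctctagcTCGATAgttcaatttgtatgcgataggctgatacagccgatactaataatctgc
Sema1a, chr2L:8541643-8541743, plus strand: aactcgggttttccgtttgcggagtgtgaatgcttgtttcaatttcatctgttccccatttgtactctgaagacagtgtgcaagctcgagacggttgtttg
PlexA, chr4:1027180-1027280, minus strand: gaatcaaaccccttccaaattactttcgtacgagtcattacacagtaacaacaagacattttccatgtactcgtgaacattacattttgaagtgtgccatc
Lar, chr2L:19587244-19587344, plus strand: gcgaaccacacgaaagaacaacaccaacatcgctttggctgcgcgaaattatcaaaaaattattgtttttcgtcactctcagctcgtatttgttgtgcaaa
Ptp99A, chr3R:29479333-29479433, plus strand: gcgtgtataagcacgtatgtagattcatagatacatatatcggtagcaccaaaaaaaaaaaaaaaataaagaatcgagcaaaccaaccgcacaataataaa
Ten-m, chr3L:22407837-22407937, minus strand: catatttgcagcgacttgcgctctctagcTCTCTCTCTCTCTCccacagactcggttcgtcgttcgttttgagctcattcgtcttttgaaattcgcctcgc
Tollo, chr3L:15235555-15235655, plus strand: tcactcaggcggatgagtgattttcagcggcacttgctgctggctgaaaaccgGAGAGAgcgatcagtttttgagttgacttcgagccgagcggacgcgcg

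TATCGA lay in these windows at 6 of the 18 guidance genes with an own-start summit, dock, Pak, Abl, Ptp10D and PlexB of the windows above and robo1. That is 33.3%, where 32.1% of all nuclear summits and 13.8% of windows of the same size centred on the 19275 starts of coding genes hold it. All 6 belonged to the 13 genes whose signal was above the nuclear median of 107, and none to the 5 genes below it. Over all nuclear summits the shares were 53.5% above that median and 10.8% at or below it. TAATTA, the core of many homeodomain sites, lay in 1 of the 18 windows, that of Ptp69D, against 5.74% of all nuclear summits and 2.99% of coding starts. GAGAGA lay in 2, those of Ten-m and Tollo, against 6.80% and 4.07%. CACGTG and GTCACA lay in none of the 18, against 1.76% and 7.35% of all nuclear summits and 1.82% and 8.76% of coding starts. Windows of trio and Ptp69D held 18.8% and 19.8% G and C. Only 1.51% of nuclear summit windows were below 20%, and their median was 42.6%. No match says only that these letters are not in this window.

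Among the ligand genes, the Slit and Netrin cues lacked an own-start summit in the pooled list and 2 of the 4 semaphorin genes had one. Sema2a, which encodes a secreted semaphorin, had a summit 40 bp upstream of the second of its 3 starts, inside an intron of longer transcripts (chr2R:16515852-16516367). It had signals of 146 pooled, 90.2 in replicate 1 and 59.1 in replicate 2. Both replicates therefore placed a thresholded peak at this internal start.

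Sema1a, a transmembrane semaphorin gene, had 2 own-start summits with different neighbours. The stronger had a signal of 167 (84.8 in replicate 1 and 72.4 in replicate 2). It lay 454 bp upstream of the first start, and closer, at 68 bp upstream, to the start of the transfer RNA gene tRNA:Asp-GTC-1-5. The weaker, 26 bp downstream of the second start and in the 5′ UTR, had a signal of 62.5 (35.0 and 34.4) and overlapped a thresholded peak of neither replicate. Sema1a is thus marked in every list by a summit that is nearest to another gene.

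The other ligand genes had summits only at neighbouring genes, or none. The window summit of sli, the Slit gene, had a signal of 139 and lay 29 bp upstream of the start of Rif1. That of NetA (131) lay 44 bp upstream of sbm, and the highest of 3 in the window of Sema1b (126) lay 27 bp downstream of the start of P32. NetB and Sema2b had no window summit, and their highest entries in the ranked list, described with the other starts without a summit, were 23.5 and 42.6. In replicate 2 alone NetA also had an own-start summit, 29 bp downstream of a start, with a signal of 36.1, and the highest entry of replicate 1 before thresholding was 21.0 there.

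The receptor genes held both the strongest own-start peak of the guidance genes and several starts without any. At fra, which encodes the Netrin receptor Frazzled, the signal was 645, with 504 in replicate 1 and 150 in replicate 2 (chr2R:12528682-12529120, summit 147 bp upstream of its single start). It exceeded 96.8% of nuclear summits. No other summit lay in the window of fra, and the next annotated start of another gene was 7030 bp away.

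The other Netrin receptor gene had a weaker and more distant summit. At unc-5, whose product mediates repulsion, the own-start summit lay 772 bp upstream of the first start, the most distant of all, with signals of 80.6 pooled, 48.9 in replicate 1 and 38.6 in replicate 2. The strongest summit in its window (102) was 24 bp upstream of the start of Pms2.

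Of the 3 Slit receptor genes, robo1 alone had an own-start summit. Its signal was 416 pooled, 273 in replicate 1 and 137 in replicate 2, at 58 bp upstream of the first of 2 starts (chr2R:22700843-22701203). Neither robo2 nor robo3 had a window summit in the pooled list. The ranked list, which holds 46847 nuclear entries before thresholding, had an entry of signal 46.1 at the start of robo2, with an irreproducible discovery rate (IDR) of 0.0280 against the threshold of 0.01, and none near the start of robo3.

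Both semaphorin receptor genes had an own-start summit on chromosome 4, where 12 of 80 coding genes had one and 11 nuclear summits lay in all. PlexB had signals of 210 pooled, 138 in replicate 1 and 66.4 in replicate 2, 40 bp upstream of its start. PlexA had 120, 86.8 and 47.8, at 129 bp upstream, and this peak was absent from the conservative list. A stronger summit in the window of PlexA (178) was 40 bp downstream of the start of CG11076.

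The remaining receptor genes had no own-start summit. Dscam1, which encodes a homophilic receptor with very many splice isoforms, had 3 window summits, all in introns. The highest (71.0) lay 4527 bp downstream of the nearest Dscam1 start and the second (69.2) lay 9227 bp from the start of the antisense gene asRNA:CR44071. Both overlapped thresholded peaks of replicate 2 and not of replicate 1. These were the only intronic summits of the guidance genes that lay away from any start, and drl, a Wnt5 receptor gene, had no window summit and a ranked entry of 29.7. The gene comm, whose product sorts Robo away from the growth cone, had none in the pooled list, whereas the conservative list held one 29 bp downstream of its start (signal 58.3).

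The 4 receptor tyrosine phosphatase genes fell into a strong and a weak pair. Ptp10D had signals of 351 pooled, 239 in replicate 1 and 95.8 in replicate 2, 107 bp upstream of its start. Ptp69D had 283, 239 and 58.1 at 151 bp upstream, in a peak at chr3L:12734569-12734988 whose gene start is 334 bp from that of SmD1. Lar had 78.8, 51.1 and 38.1 and Ptp99A had 73.7, 54.9 and 18.8. The weak pair lay downstream of the start, at 68 and 67 bp in the 5′ UTR. At Lar it was the second of 4 starts and at Ptp99A the fourth of 4. Only replicate 1 had a thresholded peak there, and Ptp99A was also absent from the conservative list. In the ranked list of replicate 2 the entry at Lar had an IDR of 0.0115, close to the threshold of 0.01. That at Ptp99A had 0.232. Stronger summits in the window of Lar lay nearest to starts of neighbours, the highest (331) lying 18 bp upstream of Nf-YB.

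Adhesion and surface recognition genes had the weakest own-start peaks. Ten-m, which encodes a teneurin of axon and muscle target matching, had signals of 68.7 pooled, 54.6 in replicate 1 and 28.8 in replicate 2, 24 bp upstream of its start. Tollo, a Toll-family receptor gene, had 65.2, 25.02 and 43.2 at 14 bp upstream. In the ranked lists, the replicate 2 entry at Ten-m had an IDR of 0.0132 and the replicate 1 entry at Tollo 0.364. Tollo was the one own-start summit among the 18 with a thresholded peak in replicate 2 and not in replicate 1. Its replicate 1 value over its replicate 2 value was 0.579, the lowest of the 18, whose median was 1.95.

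The other 7 adhesion genes had no own-start summit in the pooled list. Fas2, a homophilic adhesion gene of motor axon bundles, had a window summit (152) 14 bp downstream of the start of GlcAT-I, and haf had one (125) at 125 bp upstream of Rab3GAP1. The adhesion genes Fas3, Con and caps, the Toll-family gene Toll-6 and the teneurin gene Ten-a had no window summit. The ranked list held an entry at a start for Con (signal 50.03) and caps (74.0) and none for the other 3. In replicate 2 alone caps (46.8 at 113 bp upstream) and Ten-a (49.1 at 124 bp upstream) had an own-start summit.

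The effector genes had the highest own-start signals as a group, with a median of 451 over the 5 that had one. The median was 120 over the 11 receptor, phosphatase and adhesion genes with one, 156 over the 2 ligand genes, and 177 over the 5015 coding genes with one. Genes without an own-start summit do not enter these medians. Of the effector values, those of trio (451, the median itself) and dock (598) come from summits nearest to the starts of CG9205 and CG3862. Dock, an SH2 and SH3 adaptor, and Pak, the kinase it recruits, had the highest of the effector values. The dock summit had signals of 598 pooled, 360 in replicate 1 and 246 in replicate 2. It lay 59 bp upstream of dock and 49 bp upstream of CG3862, whose start is 108 bp from that of dock. Pak had 565, 395 and 173, 29 bp upstream of the first of 4 starts (chr3R:6350649-6351045), and the nearest start of another gene to any Pak start is 1653 bp away.

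The 3 other effector genes with an own-start summit differed in their neighbours. At trio, which encodes a guanine nucleotide exchange factor, the signals were 451, 310 and 136, with the summit 188 bp upstream of trio and 122 bp upstream of CG9205. Abl, a tyrosine kinase gene, had 396, 288 and 109 at 105 bp upstream of its single start, with no other start nearer than 5887 bp. For ena, whose product promotes actin filament growth, both of its 2 starts had a summit. The first had signals of 184, 102 and 102 at 114 bp upstream, and the second 77.2, 42.4 and 34.2 at 8 bp upstream, inside an intron of the longer transcripts. The summit at the second start overlapped a thresholded peak of neither replicate.

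Mical, which encodes an oxidoreductase that disassembles actin downstream of plexins, was the effector gene without an own-start summit. Its highest window summit (150) lay 13 bp downstream of the start of CG11722. In replicate 2 alone a summit of signal 31.1 lay upstream of a Mical start, within 1 kb. The highest entry of replicate 1 within 1 kb was 35.2, with an IDR of 0.0176.

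**Figure D2:**
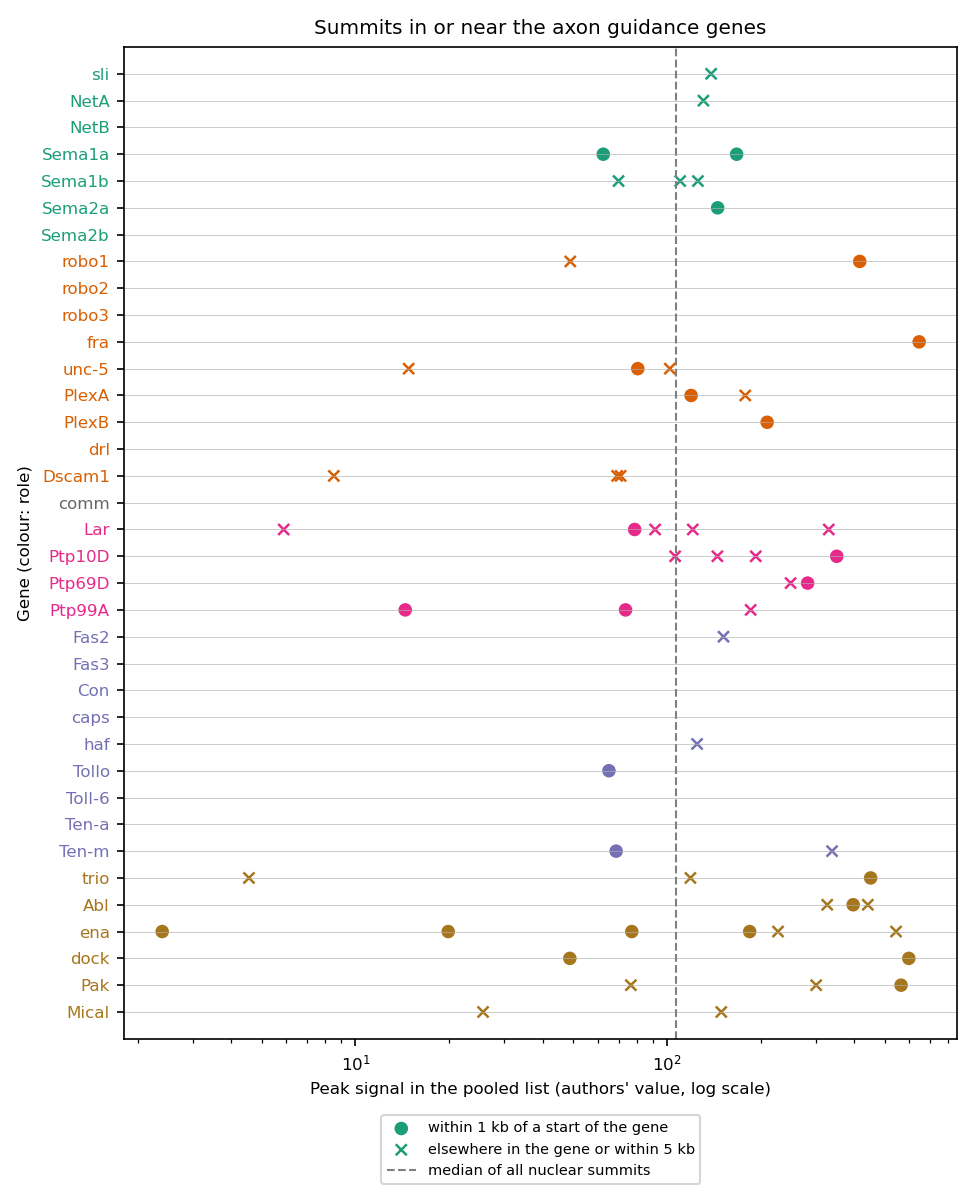
Each row is a guidance gene, ordered and coloured by role, and the x axis (log scale) is the pooled signal; circles are summits within 1 kb of a start of that gene, crosses are other summits in the gene or within 5 kb, and the dashed line is the nuclear median of 107. The 11 rows without a mark have no window summit, and 13 of the 18 genes with a circle have one above the dashed line.

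Most window summits lay nearest to a start of another gene. In all, 25 of the 36 guidance genes had a window summit, where 57.1% of coding genes had one, and among those at least as long as the median member 11 of 18 did, where 54.7% of coding genes did. The windows held 58 distinct summits. For 35 of them (60.3%) the nearest start was that of another gene, and 32 of these 35 lay within 250 bp of that start. The same share over the windows of all coding genes was not determined, so it is not shown to be particular to the guidance genes. Assigning each summit to the gene of its nearest start gave 18 guidance genes, where 26.2% of coding genes were reached, and 6 of the 18 long ones, where 32.3% were. These 18 are not the same as the 18 above, since Dscam1 entered and trio left. A window count therefore describes neighbourhood as much as the gene itself: 7 genes, sli, NetA, Sema1b, Dscam1, Fas2, haf and Mical, had window summits without one at an own start. Those of Dscam1 lay in its own introns, and those of the others near starts of neighbouring genes.

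Own-start summits lay mostly just upstream of the start, as summits did over the genome. The highest one of each guidance gene was upstream in 16 of 18, where 65.8% of all nuclear summits were upstream of their nearest start. It was within 250 bp in 16 of 18, the exceptions being unc-5 and Sema1a, where 84.4% of all nuclear summits were that close to a start of any gene. The median position was 82 bp upstream, and that of all nuclear summits 32 bp upstream of the nearest start of any gene. The genome values count every summit, whereas those of the guidance genes take only the highest of each gene, so they are not like for like. The weaker own-start summits of Sema1a, dock and Ptp99A lay 26, 143 and 311 bp downstream. Those of ena lay 8 bp upstream and 180 and 192 bp downstream.

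**Figure D3:**
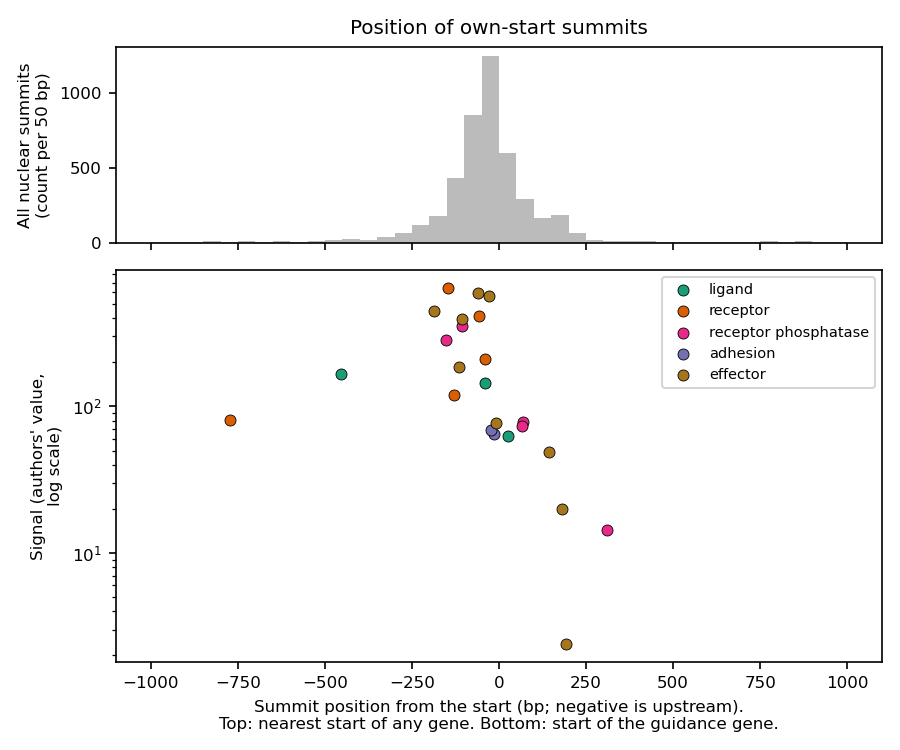
Upper panel, number of nuclear summits per 50 bp by distance from the nearest start of any gene; lower panel, pooled signal (log scale) of each own-start summit of the guidance genes by distance from the gene's start, coloured by role, negative values being upstream. The 9 highest guidance summits sit between 188 and 29 bp upstream, and unc-5 stands apart at 772 bp upstream.

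The own-start peaks were mostly shared by the replicates. The highest own-start summit overlapped a thresholded peak of both replicates at 14 of the 18 genes (77.8%), and 55.7% of all nuclear pooled peaks did so. These shares are not like for like. The first takes the highest summit per gene (median signal 197) and the second every peak (median 107). The share for the highest own-start summits of coding genes was not determined. The other 4 were Lar, Ptp99A and Ten-m in replicate 1 and Tollo in replicate 2. Replicate 1 values ran from 25.02 to 504 and replicate 2 values from 18.8 to 246. The ratio of replicate 1 to replicate 2 ran from 0.579 to 4.11 with a median of 1.95, and over the 4817 nuclear pooled peaks with both values the median was 2.13. The scales of the replicates differ, so the ratio describes only how genes stand within them. Ptp69D had the ratio of 4.11, and ena and Tollo had the lowest.

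**Figure D4:**
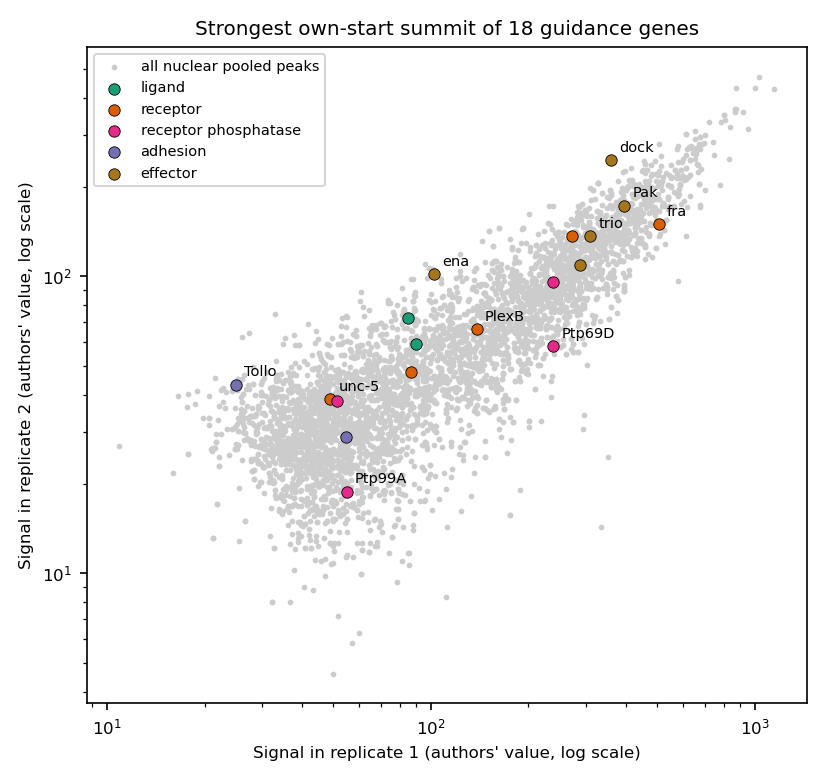
Signal in replicate 1 (x axis) and replicate 2 (y axis), both log scale, of the highest own-start summit of the 18 guidance genes, coloured by role, over all nuclear pooled peaks in grey; values are the highest overlapping entry of each replicate's ranked list. The coloured points lie in the grey cloud or, as for dock, ena and Tollo, at its edge, and run from Tollo at 25.02 and 43.2 to fra at 504 and 150.

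Most starts without a pooled summit still had an entry in the ranked list. Of the 18 guidance genes without an own-start summit, 14 had such an entry within 1 kb, with signals from 23.5 at NetB to 74.0 at caps, and robo3, Fas3, Toll-6 and Ten-a had none. Of the 8953 coding genes without an own-start summit 47.4% had one. Over all genes, with or without a summit, 32 of 36 guidance genes and 66.3% of coding genes had an entry. These shares of coding genes were not matched for length or number of starts. Of the 36 guidance genes 18 had 2 or more starts, and of the 13968 coding genes 3699 did. The entry of caps was stronger than the thresholded peaks of Tollo, Ten-m and Ptp99A, but its IDR was 0.585. The entries nearest to the threshold by IDR were those of Sema1b (0.0150), sli (0.0188), Mical (0.0253) and Fas2 (0.0256). A start without a pooled summit therefore means only that none was in the pooled thresholded list. NetA, caps, Ten-a and Mical had an own-start summit in replicate 2, and comm in the conservative list. At this unknown depth it does not mean that Unc-4 is absent.

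**Figure D5:**
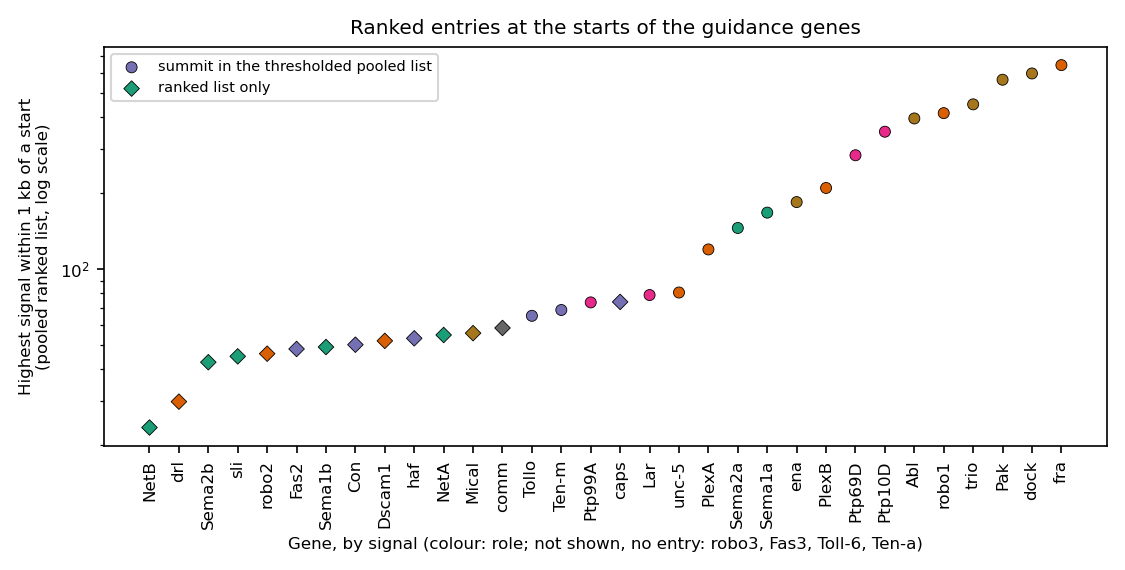
Highest signal (y axis, log scale) of any entry of the pooled ranked list within 1 kb of a start, for the 32 guidance genes that have one, ordered by that signal and coloured by role; circles have a summit in the thresholded list and diamonds do not. Diamonds run from 23.5 to 74.0 and circles from 65.2 to 645, so the 2 kinds meet between 65.2 and 74.0.

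Other genes of the guidance pathways were counted in the same way. Of 43 such genes, 19 had an own-start summit (44.2%), where 35.9% of coding genes had one. They were 6 of 21 genes for surface or secreted proteins, otk2, tutl, dlp, Gyc76C, kuz and Nrg. The others were 13 of 22 genes for intracellular proteins, such as LIMK1, ssh, chb and shot. Within the guidance genes proper the same division gave 13 of 30 and 5 of 6. By the gene of the nearest start, the other pathway genes gave 5 of 21 and 9 of 22. The guidance genes gave 14 of 30 and 4 of 6 by that count, where 26.2% of coding genes were reached. Among the other intracellular genes, chic was counted without an own-start summit. The pooled ranked list nevertheless held an entry there of signal 446, with an IDR of 1.91e-05, that is not in the thresholded list. In replicate 1 the other genes gave 4 of 21 and 10 of 22 with an own-start summit, where 29.2% of coding genes had one. In replicate 2 they gave 5 of 21 and 11 of 22, where 25.5% did. The own-start signal was 1269 at Nrg, which encodes Neuroglian, and 445 at ssh, the cofilin phosphatase gene. The summits near Liprin-alpha (387) and Hem (339) were nearest to homer and IleRS. Those of tsr (80.5), Sra-1 (282) and Gyc76C (105) were nearest to sei, Fkbp39 and CG42637.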

How the data were processed

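ChIP-seq peak lists of 2 replicates were analysed. Per the labels and the deposited descriptions, the authors used dm6 and ordered and thresholded peaks by IDR. The aligner is not given in the sources used here, nor is the peak caller. The role of further files behind the lists is not stated. The signal of each peak is the authors' deposited value. In the ranked lists the authors deposited a −log10 global IDR, converted here to IDR values, and the deposited summit offset gave the summit. The pooled thresholded list holds entries at an IDR of 0.01 or less in the pooled ranked list. It does not hold every such entry, as at chic, and why some are left out was not examined. The ranking behind the conservative list was not used here, so its IDR values are not given. Read depth is unknown.

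Genes and transcript starts came from Ensembl BDGP6.54 (transposable elements left out), sequence from RefSeq Release 6, the same assembly. Only 2L, 2R, 3L, 3R, 4, X and Y were used. Positions count from 1. Replicate values of a pooled peak are the highest overlapping entry of that replicate's ranked list. A peak can hold several summits, and each was counted. The gene Sra-1 was found as Cyfip. Start assignment was tested on simulated data. Python 3.11.15, pandas 2.3.3, numpy 2.4.6, scipy 1.17.1 and matplotlib 3.10.9 were used.

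The members, roles, other pathway genes and 6-mers were chosen with earlier results of these data known, and the split of the other pathway genes by location was made with those results known. All members are named. Members with an own-start summit have full values, and of the other pathway genes the 6 with the highest own-start signal were to have values, of which some are not reported here. Members without one have their highest window summit or their highest ranked entry. Sequences of some members are not printed. Alternatives were the conservative list, each replicate alone, the 1000 strongest peaks, other distances and windows, the 5′ end of the gene only, and coding starts only.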

Additional observations from a re-analysis of the deposited data

How the results depend on the processing

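Of 35 alternative values, 28 were within 1.5 times the value reported. With only the 1000 nuclear peaks of highest signal, guidance genes with an own-start summit numbered 7 in place of 18, ligands 0 in place of 2, and receptors with phosphatase and adhesion genes 3 in place of 11. In the same list 10 genes had a window summit in place of 25 (24.1% of coding genes), and 5 were the gene of a nearest start in place of 18 (7.04%). Effectors were 4 in place of 5. That list holds fewer peaks by construction, and 11.3% of coding genes had an own-start summit in it. Without flanks, 7 genes had a summit inside the gene, where 14.1% of coding genes did. That share was not matched for length, and the guidance genes were longer (median 40274 against 2164.5 bp). Counting from the 5′ end of the gene alone left 1 ligand gene in place of 2, because the Sema2a summit is at an internal start. By that count 34.6% of coding genes had an own-start summit. Leaving out 1 replicate gave 17 to 19 guidance genes with an own-start summit, where 25.5 to 29.2% of coding genes had one. They were 2 to 3 ligands, 10 to 10 receptors with phosphatase and adhesion genes, and 5 to 6 effectors. It also gave 23 to 28 genes with a window summit (46.1 to 49.5% of coding genes) and 15 to 18 genes of a nearest start (17.7 to 20.5%). No paired analysis was possible because there was 1 group. Unknown read depth limits what the absence of a peak can show.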

Other observations

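Entries of the ranked lists, whether or not they passed the threshold, were spread unevenly along the long guidance genes. Ten-m held 100 entries of the pooled ranked list within its 114820 bp, or 8.71 per 10 kb, and none of them passed the threshold. That density was above 98.1% of the 464 coding genes at least as long as the median guidance gene, whose median was 2.33 per 10 kb. Replicate 1 held 30 entries in Ten-m (above 92.9% of those genes) and replicate 2 held 83 (above 98.5%). The highest of the pooled entries had a signal of 36.9. Next came sli, with 34 entries or 6.46 per 10 kb, above 93.1% of those genes, with 10 and 35 in the replicates. At the other end, Fas3, with a similar length to Fas2 (73340 and 73207 bp), held 1 entry against 21. In the replicates Fas3 had 0 and 8 and Fas2 had 3 and 17. This was noticed in the data, and what the entries are was not tested.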
